A study of Mus musculus with 2 samples.

Results

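The genes described here are the enzymes of glycolysis, the glucose and lactate transporters at its ends, the bifunctional PFKFB enzymes that set the level of its activator fructose 2,6-bisphosphate, and the pyruvate dehydrogenase kinases that hold pyruvate back from mitochondria. They were chosen by symbol. The 32 symbols matched 33 of the 32287 rows of each count matrix, because Aldoa names 2 rows. The question was which isozyme or transporter paralogue parathyroid cells hold, and which the other cells of the same glands hold.

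Glycolysis splits glucose into pyruvate, and several of its steps are served by paralogous enzymes that differ in affinity, regulation and tissue. Hexokinase traps glucose in the cell, phosphofructokinase commits it to the pathway, and lactate dehydrogenase turns pyruvate into lactate and back. Parathyroid chief cells are endocrine cells that sense blood calcium and secrete parathyroid hormone, and their exocytosis and calcium handling draw on ATP.

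Single-cell RNA-seq had been done on parathyroid glands of Gcm2-/- mice on a BDF1B6 background that had been complemented with Pth-tdTomato mouse embryonic stem cells. Gcm2 encodes a transcription factor without which the gland does not form, so the glands are stem cell-derived, while other cells of the mice can come from host or stem cells. The first replicate was a pool from 3 animals, 9 to 12 weeks old, in which stem cells had given rise to 50 to 70% of peripheral blood, and the second a pool from 5 animals, 6 to 13 weeks old, at 60 to 70%. Both libraries pooled males and females, and both come from mice of the same genotype complemented with the same reporter cells. There is no other group, so the comparisons below are between cell classes within these 2 libraries. No mouse can be told from another. Parathyroid barcodes are taken as stem cell-derived, while the other classes can mix host and stem cells. Cell class and origin therefore cannot be told apart in these comparisons.

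Replicate 1 held 1406 barcodes with 41517620 UMIs and replicate 2 held 3518 with 88283761. After filters, 659 and 2225 barcodes had at least 5% of their UMIs on Pth, the gene of parathyroid hormone, and are called parathyroid barcodes. Another 567 and 1049 had less than 1% and were clustered and named from markers, with the ending "like" for a name that rests on them. Between these limits lay 14 and 22 barcodes, which entered no class; 34 and 49 parathyroid barcodes had 5 to 10% of UMIs on Pth, and 14 and 25 barcodes on the other side had 0.5 to 1%. There were 5 other classes with at least 20 barcodes in each library, and these were compared: fibroblast-like (231 and 453 barcodes), endothelial-like (107 and 269), macrophage-like (51 and 118), dendritic cell-like (55 and 59) and T cell-like (36 and 51). Levels are given as CPM, where 10000 CPM of a gene are 1% of all UMIs of that class and library, and pairs of values give replicate 1 and then replicate 2. UMIs of a 3' kit count captured molecules and were not divided by gene length.

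The parathyroid barcodes carried the markers of that cell. Gcm2 had 157 and 159 CPM in them, against 0.880 to 4.63 CPM in the 5 other classes. Chga had 84860 and 76562 CPM, against 598 to 988 CPM in the others. The calcium sensing receptor Casr had 349 and 315 CPM, against 2.20 to 26.5 CPM in the others. Pth, which set the classes and so is bounded by their limits, took 14.3% and 15.9% of parathyroid UMIs. Its share in the other compared classes was 0.824% to 1.26% of that level, which is the level that this parathyroid transcript reached in barcodes of other cells. In the other direction, all 8 fibroblast markers had a UMI in parathyroid barcodes, at a sum of 16.9 and 95.6 CPM against 24469 and 27491 CPM in fibroblast-like barcodes. All 9 macrophage markers had one too, at 18.3 and 40.6 CPM against 13432 and 16115 CPM in macrophage-like barcodes. The markers of the T cell-like cluster were led by Il23r, Trdc, Cd163l1 and Il17a.

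Together the 33 rows held 1491 and 1468 CPM in parathyroid barcodes, and 1417 and 1397 CPM in fibroblast-like barcodes. Macrophage-like barcodes held 1617 and 1531 CPM, endothelial-like barcodes 2040 and 2083, dendritic cell-like barcodes 2342 and 2303, and T cell-like barcodes 3054 and 2432. Parathyroid barcodes therefore lay below 4 of the 5 other classes in both libraries. Without Pth in the total, the parathyroid sums were 1740 and 1745 CPM, above macrophage-like barcodes as well. All 33 rows had at least 1 UMI there, and Gapdh alone made 26.1% of the members' UMIs over both libraries.

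**Figure D1:**
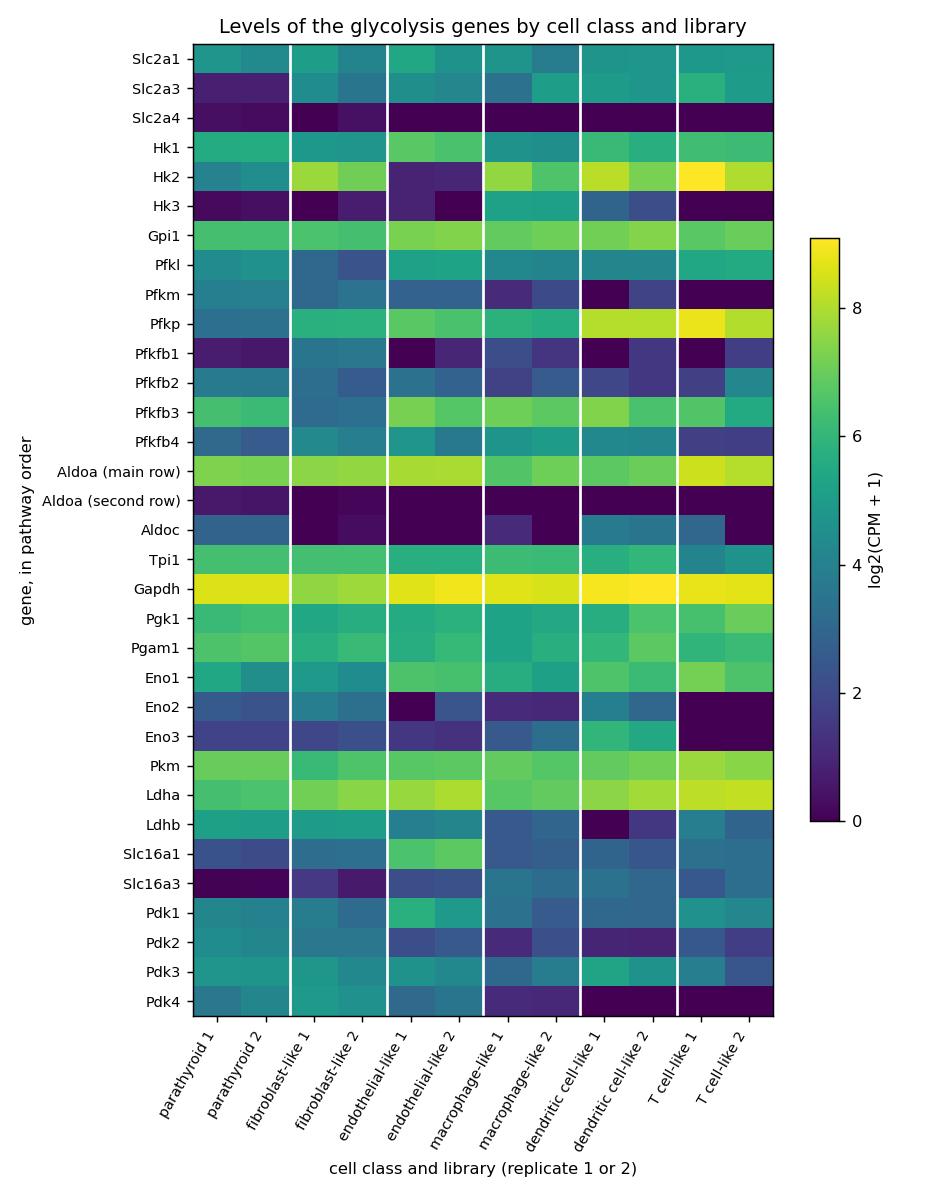
Level of each of the 33 rows (log2 of CPM + 1, colour) in 6 cell classes, with replicate 1 and replicate 2 side by side. Parathyroid barcodes have the lowest Slc2a3, Pfkp and Slc16a3 of the 6 classes and the highest Pdk2 and Ldhb, at 18.8 and 34.0 CPM on average. Ldhb of fibroblast-like barcodes is close, at 32.2 CPM, and that difference was not called. The 2 replicates look alike in most rows.

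Parathyroid barcodes were set against the average, in logs and with equal weights, of the 5 other classes in edgeR's quasi-likelihood test, with library as a block and Benjamini-Hochberg adjustment over 13160 genes. The test could be made for 31 of the 33 rows, since Slc2a4 and the second Aldoa row had too few UMIs. In parathyroid barcodes 10 members were higher, 9 were lower and 12 were not called at an adjusted p of 0.05. That is 32.3% and 29.0% of the tested members, where 37.2% and 20.3% of all tested genes were called higher and lower, so the number of calls among the members was near that of any gene. The members' median log2 fold change was 0.20, and that of all tested genes was 0.19. With the 6 members that lack a UMI in a class set at their bound, the members' median was 0.10. The higher members were Pfkm, Pfkfb2, Aldoc, Tpi1, Pgk1, Pgam1, Ldhb, Pdk2, Pdk3 and Pdk4. The lower members were Slc2a3, Hk2, Gpi1, Pfkp, Pfkfb4, Eno1, Ldha, Slc16a1 and Slc16a3. Each called member differed from the mean of the other classes in its called direction in both libraries.

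Against single classes the calls were as mixed. In parathyroid barcodes 12 members were higher and 10 lower than in fibroblast-like barcodes, or 38.7% and 32.3% of those tested, against 30.2% and 29.8% of all genes. Against endothelial-like barcodes 10 were higher and 10 lower, or 32.3% each way, against 29.4% and 25.6% of all genes. Against macrophage-like barcodes 11 were higher and 10 lower, or 35.5% and 32.3%, against 30.5% and 27.8% of all genes. The 4 comparisons share the same parathyroid sums. In each of them the members' calls were near the background in both directions. The fold change is an average of logs, so a class with a very low level weighs in it, and a gene without UMIs in a class has a fitted value that depends on the fit's prior count. For those genes a lower bound against that class is given, computed at 3 UMIs over both libraries of the class.

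**Figure D2:**
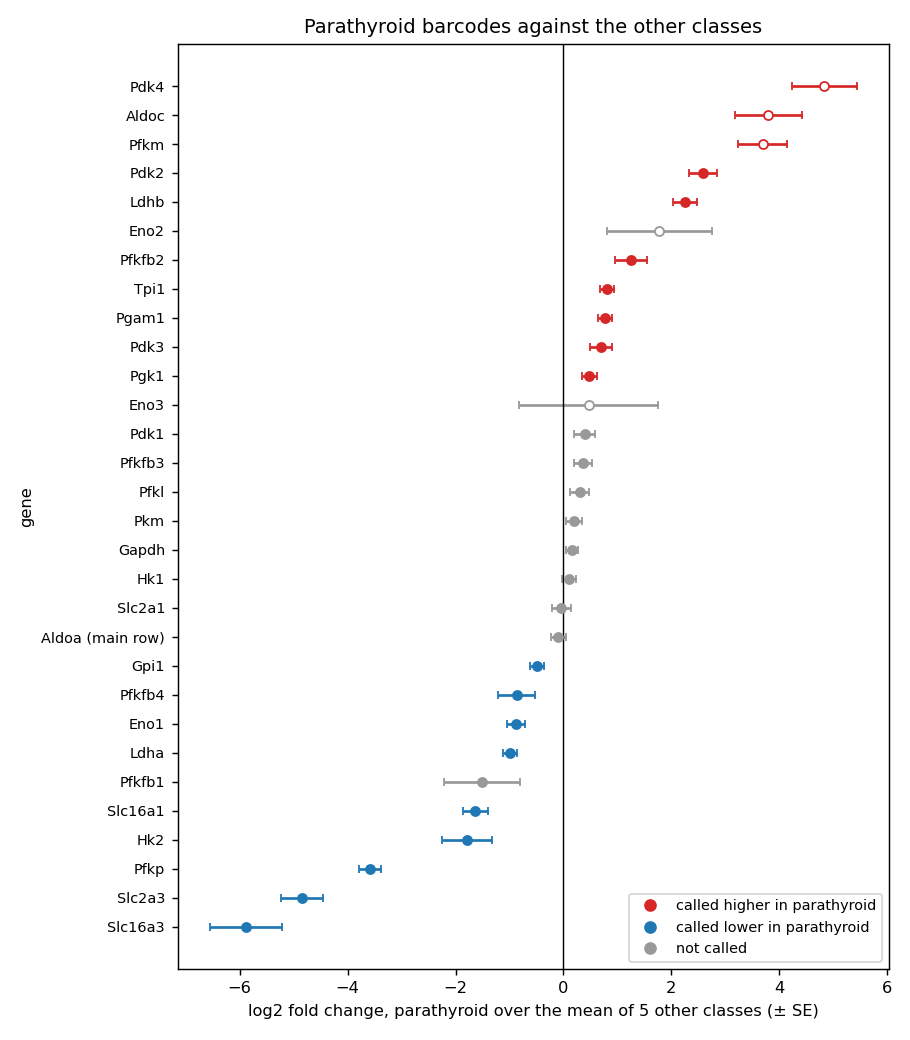
Log2 fold change (x axis, points, bars are ± SE) of parathyroid barcodes over the mean of 5 other classes for 30 of the 31 tested members (y axis); Hk3 is not drawn because its fit has no usable SE. Open points mark members with no UMI in 1 or more of the other classes (Pdk4, Aldoc, Pfkm, Eno2 and Eno3), whose values depend on the prior count, and the points run from −5.89 for Slc16a3 to 4.83 for Pdk4.

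For 4 members called in this comparison the 300 bases around the start are shown, chosen as 4 of the 11 called members whose promoters hold the pentamer ACGTG, from the start of the pathway (Hk2) and its end (Ldha, Slc16a3 and Pdk2). This pentamer is the core of the elements that hypoxia-inducible factors bind, and lies in the E-box CACGTG. Sequences are RefSeq's for GRCm38.p6, mostly before the first listed start, and run 5′ to 3′ on the gene's strand. Ldha and Pdk2 have 2 listed starts each. The Ldha and Slc16a3 windows lie inside the gene spans of the coordinates used here, which begin at 46841475 and 120948480, so other starts lie further upstream. Capitals mark ACGTG and its reverse complement CACGT, and a CACGTG counts once on each strand. The windows are Hk2 at chr6:82774405-82774704 (minus strand), Ldha at chr7:46845554-46845853 (plus strand), Slc16a3 at chr11:120948817-120949116 (plus strand) and Pdk2 at chr11:95041322-95041621 (minus strand).
Hk2: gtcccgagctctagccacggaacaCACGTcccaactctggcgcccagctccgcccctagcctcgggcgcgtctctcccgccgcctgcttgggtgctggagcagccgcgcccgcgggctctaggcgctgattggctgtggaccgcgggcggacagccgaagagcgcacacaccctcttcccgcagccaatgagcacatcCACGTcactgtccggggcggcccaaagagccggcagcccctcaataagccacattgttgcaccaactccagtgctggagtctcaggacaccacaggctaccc
Ldha: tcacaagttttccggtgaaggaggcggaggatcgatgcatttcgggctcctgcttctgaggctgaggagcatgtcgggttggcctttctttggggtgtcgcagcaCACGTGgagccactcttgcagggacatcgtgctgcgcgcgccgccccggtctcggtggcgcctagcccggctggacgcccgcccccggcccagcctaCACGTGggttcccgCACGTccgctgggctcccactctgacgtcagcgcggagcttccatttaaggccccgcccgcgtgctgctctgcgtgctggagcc
Slc16a3: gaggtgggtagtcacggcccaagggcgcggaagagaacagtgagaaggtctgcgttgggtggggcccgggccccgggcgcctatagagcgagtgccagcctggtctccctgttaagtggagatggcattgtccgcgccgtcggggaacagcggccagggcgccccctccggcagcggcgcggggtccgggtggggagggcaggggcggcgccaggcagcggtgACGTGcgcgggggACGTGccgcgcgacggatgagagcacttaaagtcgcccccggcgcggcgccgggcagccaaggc
Pdk2: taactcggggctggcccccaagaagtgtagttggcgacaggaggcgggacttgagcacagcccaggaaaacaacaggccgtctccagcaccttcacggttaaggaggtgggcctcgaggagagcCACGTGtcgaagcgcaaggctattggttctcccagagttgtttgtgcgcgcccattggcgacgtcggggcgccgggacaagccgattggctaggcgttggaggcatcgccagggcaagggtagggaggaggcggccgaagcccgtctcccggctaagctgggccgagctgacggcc
The Ldha window holds 5 matches, and the other windows hold 2 each. Of the 30 member symbols in the promoter table, 15 hold a match (50.0%), as do 5315 of 27025 promoters of all genes (19.7%). A match was found in 7 of 10 members called higher and in 4 of 8 called lower, so it did not go with 1 direction. It was also found in 4 of 12 that were not called. A match is a description of the letters in this window and shows no binding.

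Nearly all UMIs of the 3 glucose transporters in parathyroid barcodes came from 1 of them. Slc2a1, which encodes the widely expressed transporter GLUT1, had 25.4 and 19.3 CPM in parathyroid barcodes, against 13.4 to 41.4 CPM over the 10 other sums. Those ranges overlap, and no comparison called Slc2a1 (log2 fold change against the mean −0.04 ± 0.18, SE, edgeR adjusted p = 0.941). Slc2a3, the high-affinity transporter GLUT3 of neurons and blood cells, had 0.759 and 0.747 CPM in parathyroid barcodes, against 9.48 to 53.2 CPM in the others. It was lower by a log2 fold change of −4.85 ± 0.38 (edgeR adjusted p = 1.43e-07), and lower than in each of the 3 largest classes. Of the UMIs of these transporters, Slc2a1 thus held 96.0% (exact binomial interval 94.4 to 97.3%) and 95.3% (94.1 to 96.4%) in parathyroid barcodes, against 29.5 to 72.4% in the other sums. Slc2a4, the insulin-responsive transporter GLUT4 of muscle and fat, had 0.297 and 0.197 CPM in parathyroid barcodes, and among the 5 compared classes it had UMIs only in fibroblast-like barcodes of replicate 2, at 0.337 CPM. In the sums without a UMI, 3 UMIs would be 0.606 to 6.94 CPM, above the parathyroid level, so these zeros do not show absence.

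Hexokinase was 1 of 2 families, out of 9, whose leading paralogue in parathyroid barcodes was not the leading one by mean CPM over the other classes. The other classes did not share 1 leader in most families, and the same paralogue led in all 5 of them and in parathyroid barcodes in 3 families (aldolase, enolase and lactate dehydrogenase). By the mean of both libraries, Slc2a3 led in 3 of the 5, Slc16a3 in 2, and Pdk3 in only 2. Some of these leads rest on few UMIs or differ between libraries. In macrophage-like barcodes Slc2a1 held 72.4% of glucose transporter UMIs in replicate 1, and Slc2a3 held 70.5% in replicate 2. In replicate 2, Slc2a3 and Slc2a1 had 30 UMIs each in dendritic cell-like barcodes, and 14 and 13 in T cell-like barcodes. Pdk3 led in macrophage-like barcodes in replicate 2 only. Hk1, the housekeeping isozyme of brain and red cells, had 47.7 and 48.0 CPM in parathyroid barcodes, and Hk2, the inducible isozyme of muscle and of proliferating cells, had 15.1 and 20.7 CPM. Hk1 held 75.7% (73.7 to 77.6%) and 69.5% (68.2 to 70.8%) of hexokinase UMIs there. In fibroblast-like barcodes Hk1 held 11.8 and 15.8%, in macrophage-like barcodes 9.26 and 14.6%, in dendritic cell-like barcodes 19.0 and 24.9%, and in T cell-like barcodes 12.8 and 22.5%. Endothelial-like barcodes were the exception, with 98.4 and 98.9%.

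Hk2 was the paralogue that was low. It stood at 15.1 and 20.7 CPM in parathyroid barcodes, against 209 and 137 CPM in fibroblast-like, 0.880 and 0.950 CPM in endothelial-like, 197 and 96.1 CPM in macrophage-like, 285 and 151 CPM in dendritic cell-like and 537 and 258 CPM in T cell-like barcodes. Parathyroid barcodes lay below 4 classes and above endothelial-like barcodes, with no overlap. Against fibroblast-like barcodes the log2 fold change was −3.07 ± 0.32 (edgeR adjusted p = 8.83e-06), and against macrophage-like barcodes −2.95 ± 0.34 (edgeR adjusted p = 1.95e-05). Against endothelial-like barcodes, which had 3 Hk2 UMIs in all, the pooled CPM ratio was 20.6 (counting interval 7.03 to 99.8). Hk1 itself was higher than in fibroblast-like barcodes (0.92 ± 0.17, edgeR adjusted p = 0.000217), higher than in macrophage-like barcodes (0.97 ± 0.22, edgeR adjusted p = 0.00126) and lower than in endothelial-like barcodes (−0.76 ± 0.17, edgeR adjusted p = 0.00148). After each barcode was thinned to 5000 UMIs, an Hk2 UMI was found in 7.24 and 9.53% of parathyroid barcodes, against 0.582 and 0.368% of endothelial-like and 38.3 and 35.3% of fibroblast-like barcodes. Before thinning, the parathyroid shares were 40.7 and 37.7%, at median depths of 37820 and 30565 UMIs, against 10203 and 7587 UMIs in endothelial-like barcodes. Hk3, the isozyme of myeloid cells, had 0.165 and 0.310 CPM in parathyroid barcodes and 35.6 and 33.6 CPM in macrophage-like barcodes (log2 fold change −7.13 ± 0.68, edgeR adjusted p = 4.87e-07).

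**Figure D3:**
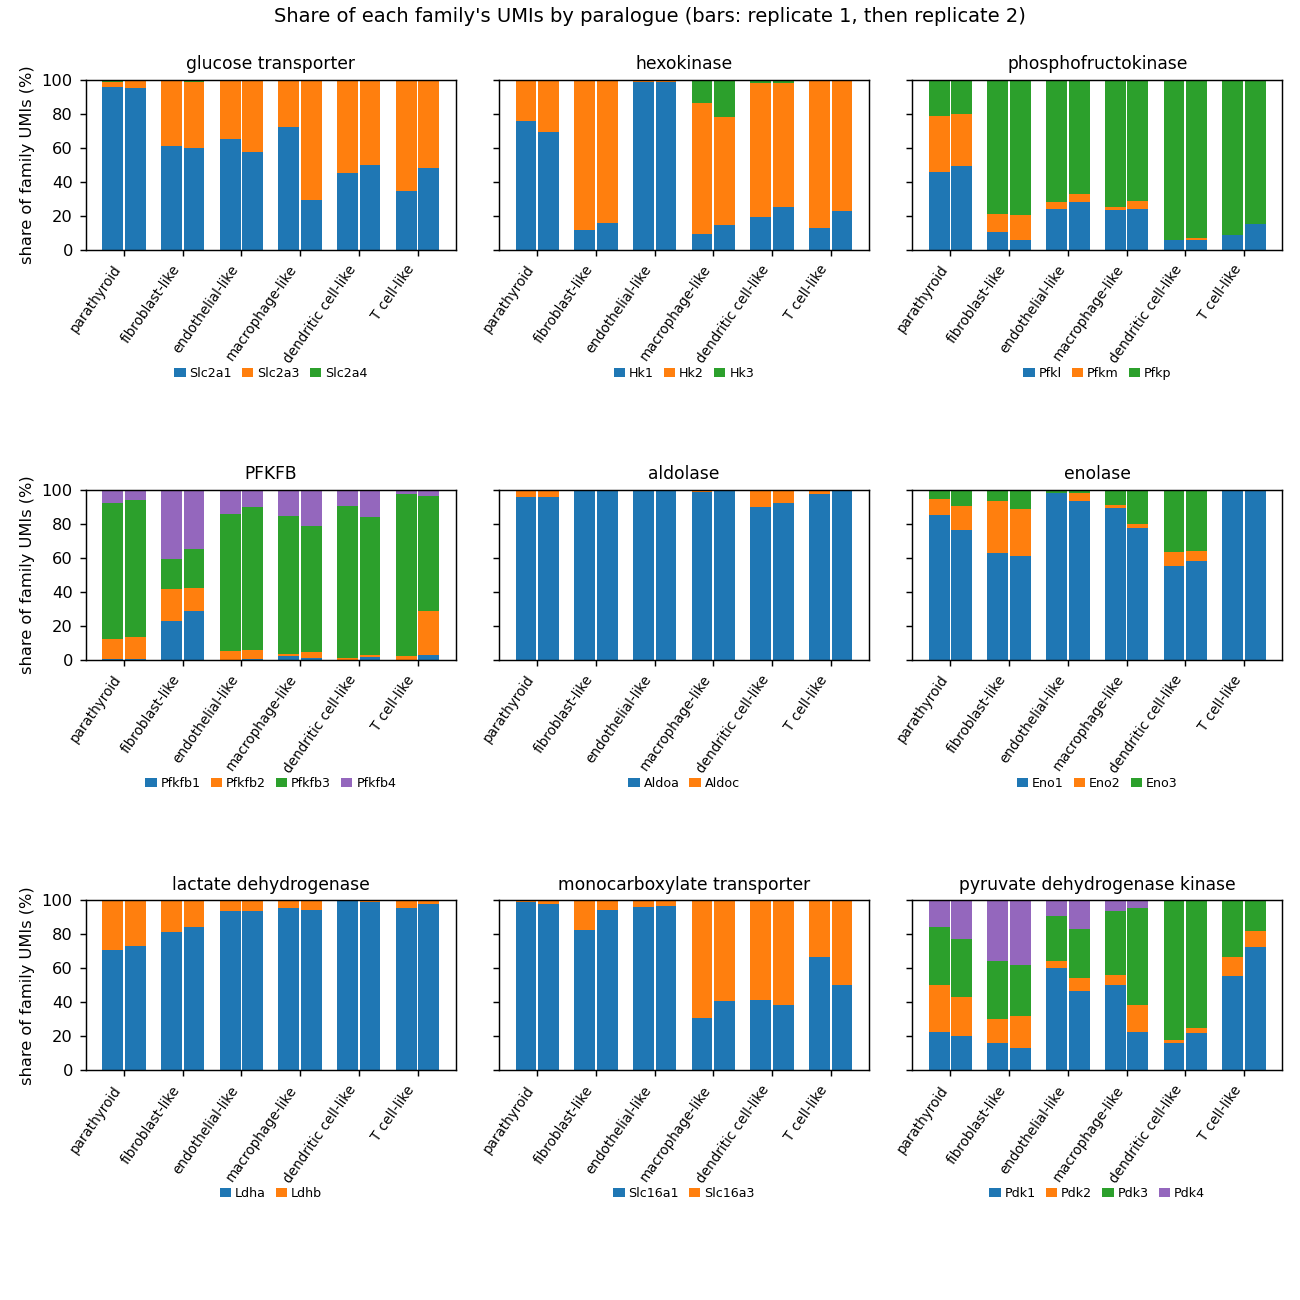
Share of each family's UMIs held by each paralogue (y axis, percent) in 6 classes for 9 families, with the bar of replicate 1 left of that of replicate 2. In the hexokinase panel Hk1 holds 75.7 and 69.5% in parathyroid barcodes, and in the phosphofructokinase panel parathyroid barcodes are the only ones where Pfkp holds less than either Pfkl or Pfkm.

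Phosphofructokinase was the other family whose leading paralogue differed. It forms tetramers of liver (Pfkl), muscle (Pfkm) and platelet (Pfkp) subunits. Pfkl held 45.9 and 49.2% of the family's UMIs in parathyroid barcodes, Pfkm held 33.0 and 30.9%, and Pfkp held the rest. Pfkp led in each of the other 5 classes, at 67.0 to 94.0% of the family. Its level was 9.01 and 9.45 CPM in parathyroid barcodes, against 54.1 and 54.7 CPM in fibroblast-like, 107 and 88.9 CPM in endothelial-like, 56.9 and 48.0 CPM in macrophage-like, 266 and 265 CPM in dendritic cell-like and 449 and 264 CPM in T cell-like barcodes. All 10 other sums lay above both parathyroid sums (log2 fold change −3.58 ± 0.20, edgeR adjusted p = 5.06e-10). After thinning, 4.01 and 4.51% of parathyroid barcodes had a Pfkp UMI, against 82.9 and 70.2% of T cell-like barcodes.

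Pfkm went the other way. It had 14.1 and 14.6 CPM in parathyroid barcodes, against 7.27 and 9.88 CPM in fibroblast-like, 6.16 and 6.18 CPM in endothelial-like, 1.19 and 3.10 CPM in macrophage-like, 0 and 2.65 CPM in dendritic cell-like and 0 CPM in T cell-like barcodes. The parathyroid values were above those of the 5 compared classes, at least 4.28-fold above T cell-like barcodes at 3 UMIs and 10.6-fold (3.62 to 51.5) above dendritic cell-like barcodes on pooled counts. The fitted log2 fold change was 0.83 ± 0.29 against fibroblast-like (edgeR adjusted p = 0.0238, and 0.0530 without the library block), 1.52 ± 0.41 against endothelial-like (edgeR adjusted p = 0.00545) and 2.49 ± 0.53 against macrophage-like barcodes (edgeR adjusted p = 0.00107). Pfkl, at 19.6 and 23.3 CPM in parathyroid barcodes, was higher than the 7.27 and 4.04 CPM of fibroblast-like barcodes (2.09 ± 0.25, edgeR adjusted p = 3.54e-06) and was not called against endothelial-like or macrophage-like barcodes or the mean.

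The PFKFB enzymes make and break fructose 2,6-bisphosphate. Pfkfb3, the isoform with the strongest kinase over phosphatase activity, led in parathyroid barcodes with 80.0 and 80.3% of the family. It had 83.5 and 71.3 CPM there, against 8.08 and 9.10 CPM in fibroblast-like, 150 and 103 CPM in endothelial-like, 133 and 111 CPM in macrophage-like, 166 and 87.6 CPM in dendritic cell-like and 97.2 and 46.2 CPM in T cell-like barcodes. Fibroblast-like barcodes stood far below all other classes, and parathyroid barcodes were higher than they were by 3.21 ± 0.25 on the log2 scale (edgeR adjusted p = 2.82e-08) and lower than macrophage-like barcodes by a log2 fold change of −0.74 ± 0.23 (edgeR adjusted p = 0.0104, and 0.0636 without the library block). Pfkfb2, the heart isoform, had 12.4 and 11.8 CPM in parathyroid barcodes, against 1.77 to 17.6 CPM in the others, and was higher against their mean (1.25 ± 0.30, edgeR adjusted p = 0.00186). Only T cell-like barcodes of replicate 2 exceeded it. Pfkfb4 had 7.88 and 5.16 CPM in parathyroid barcodes, against 2.20 to 31.0 CPM in the others (−0.87 ± 0.35, edgeR adjusted p = 0.0439), a call that 5 of the alternative settings did not keep. Pfkfb1, the liver isoform, had 0.627 and 0.493 CPM in parathyroid barcodes and 10.5 and 11.5 CPM in fibroblast-like barcodes, which were the only class where all 4 isoforms held over 10% of the family (log2 fold change −4.21 ± 0.52, edgeR adjusted p = 3.94e-06).

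In the middle of the pathway most steps have 1 main enzyme. Aldoa, Gapdh, Pgk1, Pgam1, Tpi1, Eno1 and Ldha have near-identical copies or pseudogenes among which reads can be split, so their counts are uncertain to that extent. Gpi1, which turns glucose 6-phosphate into fructose 6-phosphate, had 83.4 and 81.3 CPM in parathyroid barcodes, against 84.1 to 166 CPM in the others (−0.49 ± 0.13, edgeR adjusted p = 0.00421). It was lower than in endothelial-like (−0.68 ± 0.16, edgeR adjusted p = 0.00236) and macrophage-like barcodes (−0.71 ± 0.17, edgeR adjusted p = 0.00209). The difference from fibroblast-like barcodes was not called (0.01 ± 0.16, edgeR adjusted p = 0.974). Aldoa, the main aldolase, had 160 and 151 CPM in parathyroid barcodes, against 97.2 to 338 CPM in the others, and no comparison called it. The second Aldoa row (ENSMUSG00000114515, chromosome 7, 126800790 to 126809108 on GRCm38) lies directly upstream on the same strand. It had 16 and 30 UMIs in parathyroid barcodes and 1 UMI in the other 5 classes together. Aldoc, the brain isozyme, had 6.47 and 6.51 CPM in parathyroid barcodes, against 0 and 0.225 CPM in fibroblast-like, 0 CPM in endothelial-like, 1.19 and 0 CPM in macrophage-like, 12.2 and 10.6 CPM in dendritic cell-like and 6.94 and 0 CPM in T cell-like barcodes. It lay at least 7.02-fold above endothelial-like barcodes, 45.0-fold (12.4 to 372) above fibroblast-like barcodes and at 0.571 (0.383 to 0.889) of dendritic cell-like barcodes on pooled counts. Aldoa still held 96.1 and 95.9% of aldolase UMIs in parathyroid barcodes.

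Tpi1, triose phosphate isomerase, had 84.0 and 82.0 CPM in parathyroid barcodes, against 16.2 to 82.0 CPM in the others. It was higher than the mean (0.80 ± 0.13, edgeR adjusted p = 6.65e-05) and than endothelial-like barcodes, and was not called against fibroblast-like (0.12 ± 0.16) or macrophage-like barcodes (0.09 ± 0.18). Gapdh, the dehydrogenase step and the member of highest level, had 385 and 387 CPM in parathyroid barcodes, against 190 and 214 CPM in fibroblast-like and 375 to 542 CPM in the other 4 classes. Only the comparison with fibroblast-like barcodes was called for it (1.02 ± 0.14, edgeR adjusted p = 1.6e-05). Pgk1, the first ATP-making step, had 69.1 and 80.1 CPM in parathyroid barcodes, against 37.9 to 128 CPM in the others. Pgam1, phosphoglycerate mutase, averaged 96.1 ± 5.49 CPM in parathyroid barcodes (SD, n = 2), against 37.9 to 111 CPM in the others. Both were higher against the mean (Pgk1 by 0.48 ± 0.14, edgeR adjusted p = 0.00679, and Pgam1 by 0.77 ± 0.13, edgeR adjusted p = 0.000124) and against each of the 3 largest classes, while dendritic cell-like barcodes of replicate 2 lay above them for both genes, and both T cell-like sums did for Pgk1.

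Enolase and pyruvate kinase close the pathway. Eno1, the ubiquitous enolase, had 43.1 and 21.4 CPM in parathyroid barcodes, against 28.5 and 20.4 CPM in fibroblast-like and 34.6 to 146 CPM in the other 4 classes, and it was lower in replicate 2 in all 6 classes. Its log2 fold change was −0.88 ± 0.16 against the mean (edgeR adjusted p = 0.000191) and −1.31 ± 0.20 against endothelial-like barcodes (edgeR adjusted p = 5.31e-05). It was not called against fibroblast-like (0.43 ± 0.20, edgeR adjusted p = 0.0728) or macrophage-like barcodes (−0.53 ± 0.23, edgeR adjusted p = 0.0613). Eno1b, a near-identical copy, held 1.12 and 0.592 CPM in parathyroid barcodes. Eno2, the neuronal and neuroendocrine isozyme, had 4.98 and 4.0 CPM in parathyroid barcodes and was lower than the 13.7 and 9.21 CPM of fibroblast-like barcodes (−1.24 ± 0.39, edgeR adjusted p = 0.0127). Eno2 held 9.85 and 14.3% of enolase UMIs in parathyroid barcodes. Eno3, the muscle isozyme, had 2.51 and 2.55 CPM in parathyroid barcodes and 62.7 and 44.2 CPM in dendritic cell-like barcodes. Within that class it lay mostly in a cluster led by Ccr7, at 309 and 470 CPM in 11 and 5 barcodes, and stood at 3.48 and 3.87 CPM in the other cluster. Pkm had 126 and 125 CPM in parathyroid barcodes, against 68.3 to 208 CPM in the others, and was higher than in fibroblast-like (0.71 ± 0.18, edgeR adjusted p = 0.00337) and endothelial-like barcodes (0.48 ± 0.19, edgeR adjusted p = 0.0463), of which the second call was lost with DESeq2 size factors (0.151), in the DESeq2 test (0.195) and without the library block (0.0914). Its M1 and M2 splice forms cannot be told apart in these counts.

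For lactate dehydrogenase both paralogues differed. Ldha encodes the subunit of lactate dehydrogenase that prevails in glycolytic tissue, and Ldhb the subunit of heart. Ldha had 83.5 and 91.0 CPM in parathyroid barcodes, against 140 and 175 CPM in fibroblast-like, 204 and 247 CPM in endothelial-like, 105 and 119 CPM in macrophage-like, 179 and 224 CPM in dendritic cell-like and 292 and 304 CPM in T cell-like barcodes. With Pth in the total, all other sums lay above both parathyroid sums. With Pth taken out, replicate 2 parathyroid barcodes with 15 to 20% of UMIs on Pth had 112 CPM, above the 105 CPM of macrophage-like replicate 1. The log2 fold change against the mean was −0.99 ± 0.13 (edgeR adjusted p = 7.44e-06), and the smallest difference was that from macrophage-like barcodes (−0.45 ± 0.16, edgeR adjusted p = 0.0292). That call was lost without a filter on low counts (−0.26, edgeR adjusted p = 0.388), without the library block (0.0946) and at a clustering resolution of 2 (0.0559). Ldhb had 34.8 and 33.2 CPM in parathyroid barcodes, against 31.3 and 33.0 CPM in fibroblast-like, 14.1 and 16.6 CPM in endothelial-like, 4.74 and 6.72 CPM in macrophage-like, 0 and 1.77 CPM in dendritic cell-like and 13.9 and 6.6 CPM in T cell-like barcodes. Parathyroid and fibroblast-like barcodes were the 2 high classes, and the difference between them was not called (0.17 ± 0.20, edgeR adjusted p = 0.504). Against endothelial-like barcodes Ldhb was higher by 1.39 ± 0.27 (edgeR adjusted p = 0.000425) and against macrophage-like barcodes by 2.40 ± 0.35 (edgeR adjusted p = 2.65e-05). Ldhb made 29.4% (27.9 to 31.0%) and 26.8% (25.8 to 27.7%) of lactate dehydrogenase UMIs in parathyroid barcodes, against 18.3 and 15.8% in fibroblast-like barcodes and at most 6.45% in the other 4 classes. Ldha remained the leading subunit in each class.

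**Figure D4:**
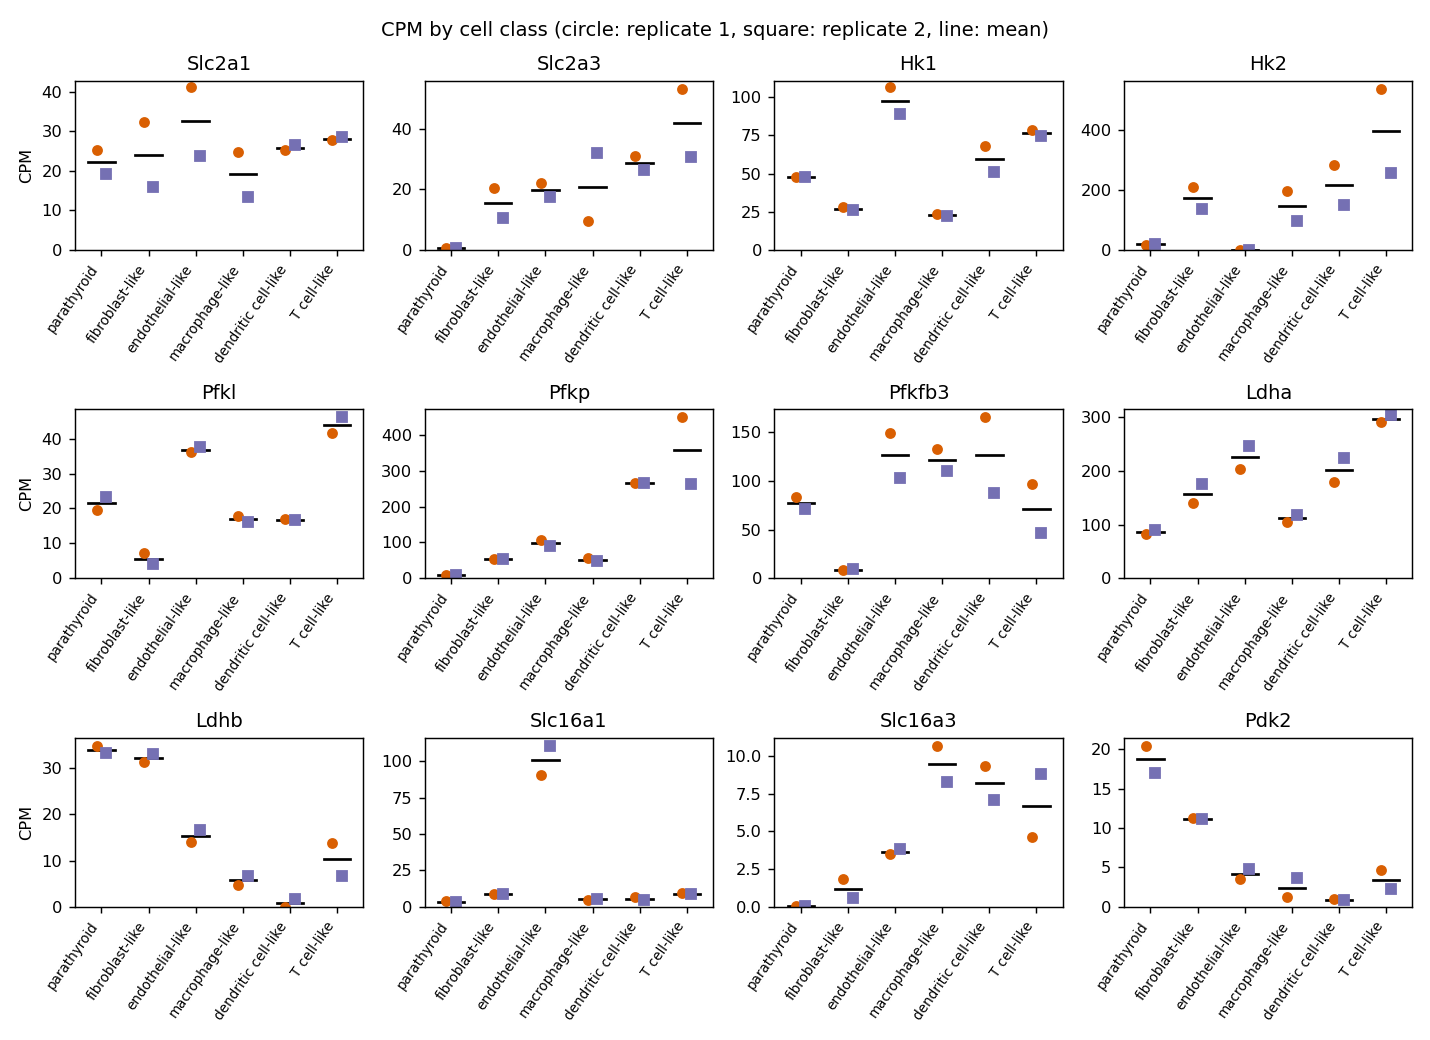
CPM of 12 members (one panel each, y axes differ) in 6 classes, with circles for replicate 1, squares for replicate 2 and a line at their mean. Hk2 lies at 15.1 and 20.7 CPM in parathyroid barcodes and between 96.1 and 537 CPM in 4 of the other classes, and Slc16a3 lies at 0.0330 and 0.0705 CPM in parathyroid barcodes, below all 10 other sums.

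Both lactate transporters of the set were low. Slc16a1 encodes MCT1, which carries lactate in either direction, and Slc16a3 encodes MCT4, the exporter of strongly glycolytic cells. Slc16a3 had 1 and 5 UMIs in all parathyroid barcodes, which is 0.0330 and 0.0705 CPM, against 1.82 and 0.562 CPM in fibroblast-like, 3.52 and 3.80 CPM in endothelial-like, 10.7 and 8.27 CPM in macrophage-like, 9.36 and 7.08 CPM in dendritic cell-like and 4.63 and 8.80 CPM in T cell-like barcodes. On pooled counts macrophage-like barcodes held 152-fold more (60.8 to 453), and the fit gave a log2 fold change against the mean of −5.89 ± 0.66 (edgeR adjusted p = 1.52e-06). Slc16a1 had 3.86 and 3.23 CPM in parathyroid barcodes, against 8.48 and 8.99 CPM in fibroblast-like, 90.7 and 111 CPM in endothelial-like, 4.74 and 5.68 CPM in macrophage-like, 6.55 and 4.42 CPM in dendritic cell-like and 9.25 and 8.80 CPM in T cell-like barcodes. It was lower by a log2 fold change of −1.64 ± 0.23 against the mean (edgeR adjusted p = 1.86e-05) and of −4.59 ± 0.23 against endothelial-like barcodes (edgeR adjusted p = 1.54e-10), and was not called against macrophage-like barcodes (−0.70 ± 0.41, edgeR adjusted p = 0.158). Endothelial-like clusters themselves ranged in Slc16a1 from 34.3 and 65.6 CPM to 129 and 143 CPM. Within the pair, Slc16a1 made 99.2 and 97.9% in parathyroid barcodes, against 30.8 and 40.7% in macrophage-like barcodes. These shares leave out Slc16a7, a further monocarboxylate carrier outside the set, which is given below.

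Other proteins of monocarboxylate transport were taken from a list of 15 genes, of which 9 could be tested, and 5 were called higher, 1 lower and 3 not called in parathyroid barcodes, where 37.2% and 20.3% of all genes were called higher and lower, at a median of 0.81, or 0.58 with genes that lack a UMI in a class at their bound. Of the 6 calls, 3 had the called direction of the mean CPM in both libraries. Emb was called higher on the log scale at 48.8 ± 5.32 CPM in parathyroid barcodes and 484 ± 54.7 CPM in the others, and Slc16a9 at 10.7 ± 1.41 CPM in parathyroid barcodes and 21.9 ± 1.07 CPM in the others (SD, n = 2 each), so these calls do not stand for higher mean levels. Slc16a12, a carrier known for creatine transport, had 39.9 and 40.9 CPM in parathyroid barcodes and at most 2.58 CPM in any other sum, with no UMI in T cell-like barcodes (fitted log2 fold change 6.93 ± 0.36, edgeR adjusted p = 7.62e-10). Bsg, the chaperone that brings MCT1 and MCT4 to the membrane, averaged 336 ± 26.7 CPM in parathyroid barcodes and 157 ± 22.9 CPM in the others (SD, n = 2 each; 1.29 ± 0.12, edgeR adjusted p = 1.33e-07). With Pth in the total, the level of Bsg in parathyroid barcodes lay above all 10 other sums, while those of Slc16a1 and Slc16a3 lay below them. Pth, at 14.3% and 15.9% of parathyroid UMIs, lowers the CPM of other genes there. The gap of Slc16a1 to the lowest dendritic cell-like sum is small enough to depend on this. Slc16a7, which encodes MCT2, averaged 18.6 ± 0.260 CPM in parathyroid barcodes and 17.0 ± 5.08 CPM in the others (SD, n = 2 each) and was called higher on the log scale (3.16 ± 0.49, edgeR adjusted p = 5.73e-05), where 1 class had no UMI. In parathyroid barcodes Slc16a7 lay above Slc16a1, which averaged 3.54 CPM, and Slc16a3, which averaged 0.0517 CPM. Slc16a6 averaged 1.30 ± 0.0263 CPM in parathyroid barcodes and 78.0 ± 30.5 CPM in the others (SD, n = 2 each; −3.36 ± 0.43, edgeR adjusted p = 1.89e-05). Slc16a10, a carrier of aromatic amino acids, was the uncalled gene of highest level, at 15.3 ± 7.05 CPM in parathyroid barcodes and 57.9 ± 32.3 CPM in the others (SD, n = 2 each).

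Pyruvate dehydrogenase kinases switch off the enzyme that feeds pyruvate into the citric acid cycle. All 4 were expressed in parathyroid barcodes, at 22.6 and 20.4% of family UMIs for Pdk1, 27.5 and 23.1% for Pdk2, 34.5 and 33.6% for Pdk3 and 15.5 and 22.9% for Pdk4. No single kinase led by much, unlike in dendritic cell-like barcodes, where Pdk3 held 82.0 and 75.0%. Pdk2, the widely expressed isoform, had 20.5 and 17.0 CPM in parathyroid barcodes, against 11.3 and 11.1 CPM in fibroblast-like, 3.52 and 4.75 CPM in endothelial-like, 1.19 and 3.62 CPM in macrophage-like, 0.936 and 0.885 CPM in dendritic cell-like and 4.63 and 2.20 CPM in T cell-like barcodes. Both parathyroid sums lay above all others, by a log2 fold change of 2.59 ± 0.26 against the mean (edgeR adjusted p = 4e-07). Pdk4, the isoform induced by fasting, had 11.5 and 16.9 CPM in parathyroid barcodes, against 28.7 and 23.0 CPM in fibroblast-like, 7.92 and 10.5 CPM in endothelial-like and 1.19 and 1.03 CPM in macrophage-like barcodes and none in the others. It was lower than in fibroblast-like barcodes (−0.77 ± 0.25, edgeR adjusted p = 0.0147), higher than in macrophage-like barcodes (3.64 ± 0.62, edgeR adjusted p = 0.00021) and at least 11.2-fold above dendritic cell-like barcodes at 3 UMIs. Against all other barcodes as 1 class, in which classes count by their UMIs, its log2 fold change was 0.10 (edgeR adjusted p = 0.682), so the call against the mean was lost there. Pdk1, the isoform induced by hypoxia, had 16.9 and 15.1 CPM in parathyroid barcodes and was lower than the 53.7 and 29.5 CPM of endothelial-like barcodes (−1.05 ± 0.24, edgeR adjusted p = 0.00142). It was higher than in fibroblast-like barcodes (0.73 ± 0.23, edgeR adjusted p = 0.0121, and 0.0614 without the library block). Against macrophage-like barcodes it was higher too (1.14 ± 0.36, edgeR adjusted p = 0.0128), and it was not called against the mean (0.40 ± 0.19, edgeR adjusted p = 0.0920). Pdk3 had 25.7 and 24.8 CPM in parathyroid barcodes, against 4.40 to 38.4 CPM in the others (0.69 ± 0.20 against the mean, edgeR adjusted p = 0.00794). Of the 3 largest classes, only macrophage-like barcodes gave a call for it (1.07 ± 0.33, edgeR adjusted p = 0.0122, and 0.254 with other limits on Pth).

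**Figure D5:**
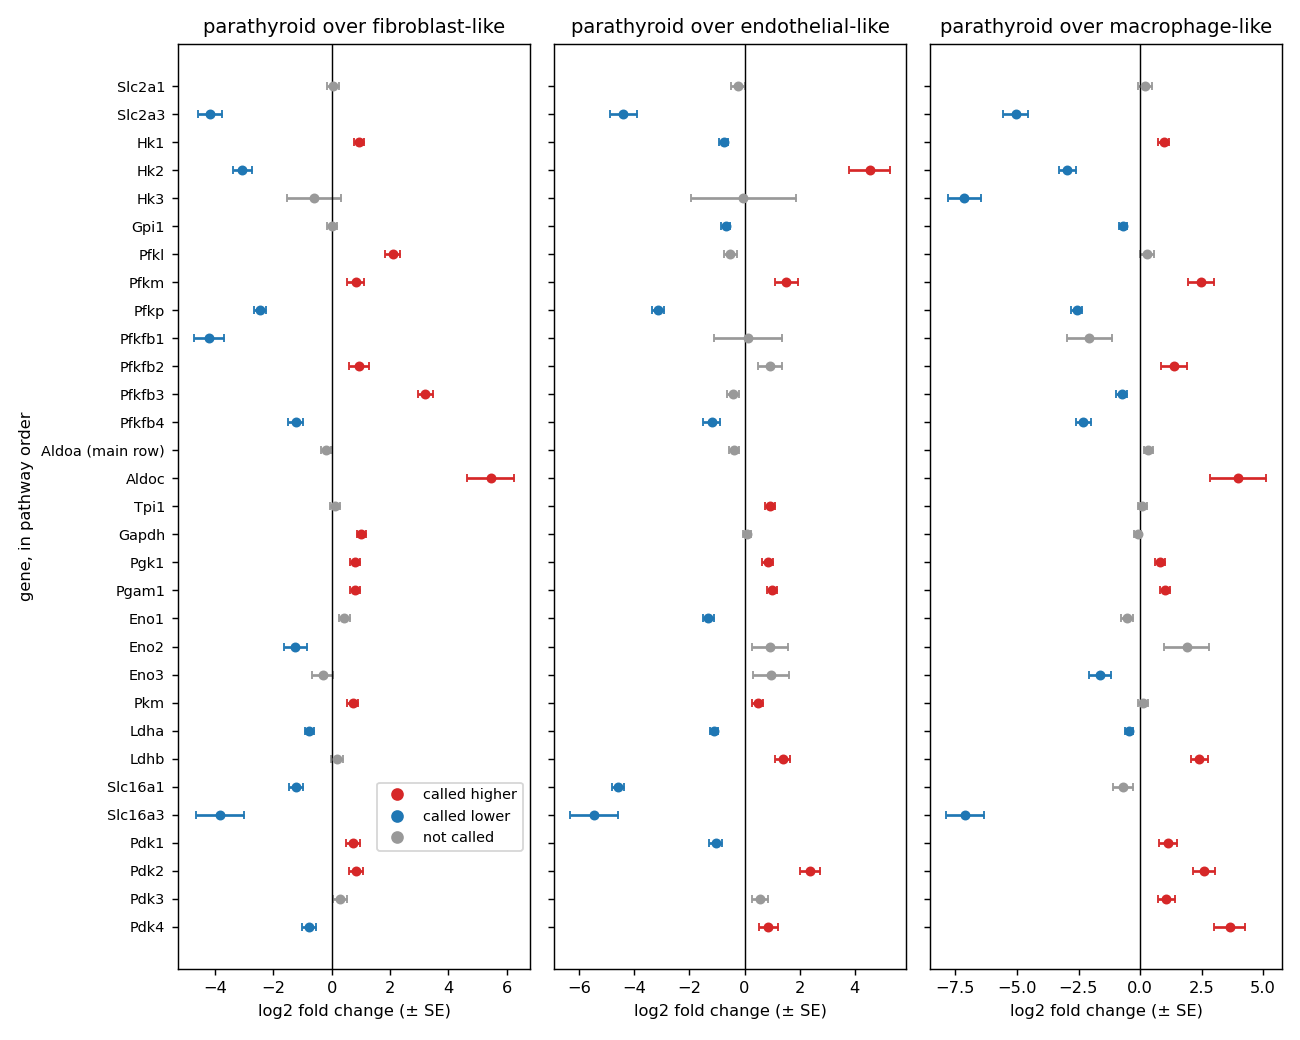
Log2 fold change (x axis, points, bars are ± SE, the axes differ) of parathyroid barcodes over fibroblast-like, endothelial-like and macrophage-like barcodes for the tested members (y axis), with Aldoc not drawn against endothelial-like barcodes, which had no UMI of it. Hk2 lies at −3.07 and −2.95 against fibroblast-like and macrophage-like barcodes and at 4.53 against endothelial-like barcodes.

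The neighbours of these steps were read from lists of the pathway. Of 11 genes of pyruvate entry and oxidation, 9 were higher, 1 lower and 1 not called in parathyroid barcodes against the mean, where 37.2% and 20.3% of all genes were called higher and lower. Their median log2 fold change was 1.04, where all genes had 0.19. Pdha1, the catalytic subunit of pyruvate dehydrogenase, averaged 80.9 ± 3.46 CPM in parathyroid barcodes and 42.5 ± 5.05 CPM in the others (SD, n = 2 each; 1.21 ± 0.13, edgeR adjusted p = 1.19e-06). Mpc1, a subunit of the mitochondrial pyruvate carrier, averaged 201 ± 7.49 CPM in parathyroid barcodes and 105 ± 21 CPM in the others (SD, n = 2 each; 1.13 ± 0.13, edgeR adjusted p = 1.61e-06). Pcx, pyruvate carboxylase, averaged 17.1 ± 0.506 CPM in parathyroid barcodes and 1.40 ± 0.543 CPM in the others (SD, n = 2 each), with no UMI in 1 class. Pdp1, the phosphatase that undoes the kinases, was the 1 lower gene, at 2.24 ± 0.224 CPM in parathyroid barcodes and 10.1 ± 0.142 CPM in the others (SD, n = 2 each; −1.95 ± 0.28, edgeR adjusted p = 1.89e-05). Pdpr, the regulatory subunit of that phosphatase, was not called, at 12.2 ± 0.428 CPM in parathyroid barcodes and 12.4 ± 0.583 CPM in the others (SD, n = 2 each).

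The pentose phosphate pathway, which draws glucose 6-phosphate off for NADPH and ribose, had 12 tested genes, of which 2 were higher, 6 lower and 4 not called against the mean, at a median of −0.66. In that comparison 37.2% and 20.3% of all genes were called higher and lower. Against endothelial-like barcodes 1 was higher, 3 were lower and 8 were not called, at a median of −0.11, where 25.6% of all genes were called lower. Tkt, transketolase, averaged 34.9 ± 0.185 CPM in parathyroid barcodes and 98.5 ± 3.11 CPM in the others (SD, n = 2 each; −1.17 ± 0.17, edgeR adjusted p = 2.04e-05). Tktl1 averaged 0.382 ± 0.440 CPM in parathyroid barcodes and 6.54 ± 4.32 CPM in the others (SD, n = 2 each), and Rbks, ribokinase, averaged 6.37 ± 0.235 CPM in parathyroid barcodes and 23.7 ± 4.39 CPM in the others. Pgls, which opens the lactone ring, was higher (0.71 ± 0.13, edgeR adjusted p = 0.000158), as was Prps1, which makes the activated ribose of nucleotides (0.51 ± 0.18, edgeR adjusted p = 0.0214). Taldo1, transaldolase, was the uncalled gene of highest level (0.01 ± 0.14).

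Of 19 tested genes of gluconeogenesis and glycogen, 9 were called higher, 2 lower and 8 not called, at a median of 0.51, where 37.2% and 20.3% of all genes were called. Gaa, acid alpha-glucosidase, was among the 9 although its mean was 30.4 ± 0.218 CPM in parathyroid barcodes and 34.2 ± 2.39 CPM in the others (SD, n = 2 each). G6pc3, the ubiquitous glucose 6-phosphatase, averaged 41.1 ± 1.58 CPM in parathyroid barcodes and 11.2 ± 1.35 CPM in the others (SD, n = 2 each; 2.04 ± 0.17, edgeR adjusted p = 7.13e-08). Phka1, a subunit of phosphorylase kinase, was higher too, at 62.0 ± 3.89 CPM in parathyroid barcodes against 16.5 ± 0.580 CPM in the others, as was its partner subunit Phkb, at 93.2 ± 2.56 CPM in parathyroid barcodes against 43.5 ± 0.0969 CPM in the others (SD, n = 2 each). Of the phosphorylases they act on, Pygm was lower by a log2 fold change of −1.88 ± 0.37 (edgeR adjusted p = 0.000378) and Pygb by −0.75 ± 0.19 (edgeR adjusted p = 0.00296). Gbe1, the glycogen branching enzyme, was not called (−0.29 ± 0.17).

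Paralogues outside the set were mostly rare, and 12 of 24 had enough UMIs to be tested. Of these 5 were higher, 2 lower and 5 not called, near the 37.2% and 20.3% of all genes called higher and lower. The median was 0.77, or 0.09 with genes that lack a UMI in a class at their bound. Slc2a12, a further glucose transporter, averaged 8.05 ± 1.82 CPM in parathyroid barcodes and 1.11 ± 0.393 CPM in the others (SD, n = 2 each; 3.02 ± 0.38, edgeR adjusted p = 5.31e-06), and Slc2a9, a urate transporter, was lower (−2.37 ± 0.44, edgeR adjusted p = 0.000236). Ldhd, the D-lactate dehydrogenase, averaged 6.61 ± 0.0610 CPM in parathyroid barcodes and 0.782 ± 0.110 CPM in the others (SD, n = 2 each), with no UMI in 2 classes. Bpgm, bisphosphoglycerate mutase, was higher (1.33 ± 0.24, edgeR adjusted p = 0.000184). Adpgk, an ADP-dependent glucokinase, was lower (−0.76 ± 0.25, edgeR adjusted p = 0.0168), and Minpp1 was not called (0.22 ± 0.18).

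Regulators of the pathway by oxygen and nutrients had 7 of 23 tested genes called higher, 5 lower and 11 not called, near the 37.2% and 20.3% of all genes, at a median of −0.03, or −0.07 with genes that lack a UMI in a class at their bound. Hif1a, the oxygen-regulated subunit of HIF-1, was not called, at 78.3 ± 0.706 CPM in parathyroid barcodes and 94.5 ± 10.2 CPM in the others (SD, n = 2 each; −0.07 ± 0.14). The called genes of smallest p in each direction were as follows. Bnip3, a mitophagy receptor, was higher (2.12 ± 0.20, edgeR adjusted p = 2.02e-07), as was Vegfa, the vascular growth factor (2.98 ± 0.27, edgeR adjusted p = 5.59e-07), at 88.0 ± 9.09 CPM in parathyroid barcodes and 60.5 ± 4.61 CPM in the others (SD, n = 2 each). Ddit4, an inhibitor of mTORC1, was lower (−1.63 ± 0.20, edgeR adjusted p = 3.42e-06), and Ndrg1 was at 0.252 ± 0.0172 CPM in parathyroid barcodes, against 76.2 ± 8.87 CPM in the others (SD, n = 2 each; −6.30 ± 0.66, edgeR adjusted p = 3.56e-06). Myc, a transcription factor that drives Ldha and other glycolytic genes, was at 0.0990 and 0.437 CPM in parathyroid barcodes and averaged 34.0 ± 4.97 CPM in the others (SD, n = 2; −5.76 ± 0.39, edgeR adjusted p = 9.13e-09). Prkaa2, a catalytic subunit of AMP-activated protein kinase, averaged 10.2 ± 0.899 CPM in parathyroid barcodes and 4.34 ± 0.992 CPM in the others (SD, n = 2 each), with no UMI in 2 classes.

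The 2 replicates of parathyroid barcodes agreed within 1.25-fold for 24 of the 33 rows. Outside that range, Eno1 in replicate 2 was at 0.497 of replicate 1 (exact interval 0.462 to 0.536), Pfkfb4 at 0.654 (0.554 to 0.773) and Slc2a1 at 0.761 (0.696 to 0.832). Hk2 was at 1.37 (1.23 to 1.52) and Pdk4 at 1.47 (1.30 to 1.66). Hk2 went the other way elsewhere and was lower in replicate 2 in fibroblast-like, macrophage-like, dendritic cell-like and T cell-like barcodes. The replicates differ in mice, age range and depth, which cannot be told apart.

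Within parathyroid barcodes the members were also read by the share of UMIs on Pth, with Pth taken out of the total. In bins of 5 to 10, 10 to 15, 15 to 20 and 20 to 30%, their sum was 1611, 1706, 1810 and 1923 CPM in replicate 1 and 1639, 1711, 1764 and 1818 CPM in replicate 2. Gapdh had 370, 437, 480 and 484 CPM in replicate 1 and 387, 435, 473 and 526 CPM in replicate 2. Hk1 showed no such order in its 57.9, 59.5, 48.2 and 49.2 CPM in replicate 1, and was lower in each step in replicate 2, at 61.2, 59.6, 55.7 and 51.5 CPM. Slc2a1 was lower in each step in both, at 37.1, 30.1, 28.1 and 23.6 CPM in replicate 1 and 27.4, 23.7, 22.4 and 21.2 CPM in replicate 2. The lowest bin held 34 and 49 barcodes and the highest 25 and 172, and cells of 1 library are not replicates, so no test was made.

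Classes too small for the comparison held other paralogues. Slc2a3 had 0.759 and 0.747 CPM in parathyroid barcodes, against 351 and 278 CPM in neutrophil-like barcodes (21 and 16), where it held 75.4 and 81.2% of glucose transporter UMIs. Slc16a3 had 0.0330 and 0.0705 CPM in parathyroid barcodes, against 823 and 353 CPM in neutrophil-like barcodes. Slc2a4 had 0.297 and 0.197 CPM in parathyroid barcodes, against 97.9 and 102 CPM in pericyte- or smooth muscle-like barcodes (10 and 22), where it held 41.9 and 63.9% of glucose transporter UMIs. Ldhb, high among the 6 compared classes in parathyroid barcodes at 34.8 and 33.2 CPM, had 105 and 88.5 CPM in these. Pfkm, at 14.1 and 14.6 CPM in parathyroid barcodes, had 45.2 and 13.3 CPM in them, from 6 and 3 UMIs. The members together held 3847 and 3486 CPM in neutrophil-like barcodes, more than in any compared class.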

How the data were processed

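The authors deposited a matrix of unnormalized UMI counts (genes by barcodes) for each of 2 parathyroid gland libraries, made with Cell Ranger 7.0.0 on mm10, per the submitters' processing notes. A droplet 3' kit was used on cells sorted against doublets, per the labels' protocols. How barcodes were called as cells, the gene annotation and the use of intronic reads are not given in the sources used here. Reporter rows tdTomato and Gfp were present, and which cells Gfp labels is not stated.

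Barcodes with under 500 genes, at least 15% of UMIs on mitochondrial genes or at least 5% on haemoglobin genes were dropped. Scrublet marked 19 (1.51%) and 23 (0.693%) doublets, which were removed, leaving 1240 and 3296 barcodes. The median depth before filters was 24345 and 26611.5 UMIs per barcode, and 3 barcodes occurred in both libraries. Barcodes with under 1% Pth were clustered with scanpy 1.11.5, python-igraph 0.11.9 and scikit-learn 1.9.0 (2000 variable genes without the members, list genes, Pth and reporters, 30 components, 15 neighbours, resolution 1) and named from 162 markers of 24 types at a score of at least 0.5 with at least 3 detected markers. One cluster of 6 and 8 barcodes, whose median was 4641.5 UMIs and whose Pth was 5.35% and 3.60% of the parathyroid level, stayed unnamed. It scored highest for the parathyroid markers, at 5.22 with 7 of 7 detected. The name was withheld because its depth was low and none of those markers was among its leading genes.

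Summing UMI counts within each class of each library gave 12 sums. They were fitted by the quasi-likelihood test of edgeR 4.0.16 (R 4.3.3) with TMM scaling and filterByExpr. Library entered as a block, since all classes in it share 1 pool of mice, and 5 residual degrees of freedom were left. A gene was called at a Benjamini-Hochberg adjusted p below 0.05 over all genes tested. Same-library deviations correlated at 0.022 to 0.2005 over 15 pairs of classes. In counts simulated for 11857 genes with 200 changed, 94.5% of the changes were recovered and 4.44% of calls were false. The simulation gave all classes the same mean profile apart from the changes in parathyroid sums, with a fixed dispersion and no library effect. It checks the fit and does not give the error rate in these data, where the other classes also differ from each other. The replicates are separate pools of mice, and cells were not treated as replicates. Intervals are exact at 95% and cover counting error only, and the floor is 3 UMIs. Shares of barcodes with a UMI were computed after thinning to 5000 UMIs, without the 16 and 34 parathyroid barcodes and 7 and 22 endothelial-like barcodes that were shallower.

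The members, lists, markers and tests were chosen with earlier results of these data known. From each list the text names up to 3 called genes of smallest p in each direction and the uncalled gene of highest level. Genes of the lists that could not be tested had too few UMIs for the filter. Alternatives were DESeq2 1.42.0, other size factors, no filter on low counts, no block, Pth and Chga left out, other limits on Pth, clustering resolution, doublet score and mitochondrial share, the other barcodes as 1 class, and each replicate left out.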

Additional observations from a re-analysis of the deposited data

How the results depend on the processing

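Against the mean of the other classes 19 members were called, and each kept its direction under every alternative run. Some calls were lost. Pgk1 missed the threshold with DESeq2 size factors (edgeR adjusted p = 0.0507), Gpi1 without a filter on low counts (0.0644) and against all other barcodes as 1 class (0.131), and Pdk4 against all other barcodes as 1 class (0.682). Pfkfb4 missed it under 5 alternatives, at 0.0501 to 0.0939. Eno3, not called at 0.46, changed sign to −1.44 against all other barcodes as 1 class, and the cause was not tested. The number of genes called lower, 2674, was 4353 with the DESeq2 test and 6320 against all other barcodes as 1 class, which has 1 residual degree of freedom and other weights for the classes. Of all calls 64.7% were higher, and 57.9% with DESeq2 size factors, 48.6% with the DESeq2 test, 73.4% without a filter and 48.2% with 1 class. The median log2 fold change of all genes, 0.19, was 0.05, −0.03, 0.60 and 0.01 under these 4, and small differences are read relative to these medians.

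Without the replicate block 9 members were higher and 8 lower against the mean, with Pgk1 (edgeR adjusted p = 0.0662) and Pfkfb4 (0.0671) lost, and 4541 and 2480 of all genes were called. Against fibroblast-like barcodes 10 and 10 members were called without the block, against endothelial-like barcodes 8 and 10, and against macrophage-like barcodes 11 and 8. The DESeq2 test dropped 6 calls against fibroblast-like barcodes (Pfkm, Pfkfb2, Eno2, Pdk1, Pdk2 and Pdk4). The call of Aldoc against macrophage-like barcodes, at 3.99, was 1.38 with a doublet score limit (adjusted p = 0.0710).

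With 1 replicate left out no residual degrees of freedom remain and no test could be made. Every called member kept its sign, and the parathyroid sum of the members ranged from 1468 to 1491 CPM. The number of families whose leading paralogue differed from the other classes ranged from 2 to 3, because in replicate 2 alone Slc2a3 led the glucose transporters of the other classes. At a clustering resolution of 2 some dendritic cell-like barcodes were named B cell-like. Depth limits the smallest classes, since T cell-like sums allow up to 6.94 and 6.6 CPM where no UMI was found.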
